A study of Mus musculus with 7 samples.

Results

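The genes described here are those of synaptic vesicles and of the membrane fusion machinery, measured in mouse brain on 7 Illumina bead arrays. They were chosen by name: a platform symbol that starts with Syt, Stx, Vamp, Snap, Sv2, Syngr, Cplx or Rab3, or one of Syn1, Syn2, Syn3, Syp, Sypl, Nsf, Napa and Napb. The array carries 139 probes for 92 such genes. Of these, 90 probes for 64 genes had a value, out of 13304 probes with a value in all (9009 named genes). All 90 were used, since the authors' table gives every probe either a value on all arrays or none. The 28 genes without a value include Snap25, the neuronal SNAP-25 itself, and Syt2, Syt7, Stx2, Cplx3, Cplx4, Syn3, Syngr4 and Rab3c. No source used here gives the rule for blank values. The symbol rule also takes in 13 probes of 11 genes by a shared prefix alone. They are Rab GTPases numbered in the thirties, which are not forms of Rab3, and subunits of the complex that activates small nuclear RNA genes (Snapc). They have a paragraph of their own below, but every count over the 90 probes includes them.

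The RNA was total RNA of brain from five-week-old C57BL/6 females. The untreated control has 1 array. The treated mice took an aqueous Ephedra herba extract orally, once daily for 1, 3 or 10 days, at 50 or 1250 mg/kg, with 6 arrays in all and 1 array for each pairing of dose and day. Ephedra herba is a medicinal herb that contains the sympathomimetic alkaloid ephedrine. No condition was replicated, and the number of mice behind each RNA sample is not stated in the labels. The 2 arrays of a day differ in dose and are the only repeat of that day, so p-values measure the spread between these arrays and not between animals. Values are log2 intensities after quantile normalization, where a difference of 1 is a 2-fold difference. Below, the 2 values of a day are those at 50 and at 1250 mg/kg, in that order. In whole brain, fewer cells of a type and less RNA per cell cannot be told apart.

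Neurotransmitter is stored in synaptic vesicles and released when a vesicle fuses with the plasma membrane. Fusion is driven by SNARE proteins, with a VAMP on the vesicle joining a syntaxin and a SNAP-25 relative on the target membrane. Synaptotagmins sense calcium, complexins and Munc18-type proteins control the SNAREs, and the ATPase NSF with its SNAP adaptors (unrelated to SNAP-25) takes spent complexes apart. Synapsins tether vesicles to each other, synaptophysin, synaptogyrins and SV2 are abundant membrane proteins of the vesicle, and Rab3 GTPases guide vesicles to release sites. Many other syntaxins and VAMPs serve traffic among the Golgi, endosomes and lysosomes in every cell.

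RefSeq promoter sequences (GRCm38.p6) were held for 55 of the 64 genes. Those of Syn2, Snap91 and Napa are printed, chosen after the values were seen, because these genes hold probes that were higher on day 3 than on day 1 and lower again on day 10 under every alternative run. Syn2 has 2 annotated starts, at chr6:115134652-115134951 and chr6:115238744-115239043, both on the + strand. The Snap91 promoter lies at chr9:86880659-86880958 on the - strand and that of Napa at chr7:16098330-16098629 on the + strand. Each is written 5′ to 3′ along the gene. Capitals mark matches on either strand to 4 short motifs, which are the GC box letters GGGCGG, the CCAAT box, the TATA box letters TATAAA and the cyclic AMP response letters TGACGTCA. No match overlaps another.
Syn2, first start: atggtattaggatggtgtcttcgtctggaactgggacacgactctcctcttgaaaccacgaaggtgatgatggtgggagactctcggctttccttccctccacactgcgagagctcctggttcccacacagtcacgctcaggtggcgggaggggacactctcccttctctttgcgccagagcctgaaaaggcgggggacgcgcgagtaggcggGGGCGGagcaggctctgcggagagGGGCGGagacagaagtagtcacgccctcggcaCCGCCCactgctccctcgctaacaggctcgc
Syn2, second start: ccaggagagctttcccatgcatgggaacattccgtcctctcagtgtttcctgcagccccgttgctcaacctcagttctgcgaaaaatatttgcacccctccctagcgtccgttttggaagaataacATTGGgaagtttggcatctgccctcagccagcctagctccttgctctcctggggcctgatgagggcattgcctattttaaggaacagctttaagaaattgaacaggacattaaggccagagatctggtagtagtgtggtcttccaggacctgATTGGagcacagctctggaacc
Snap91: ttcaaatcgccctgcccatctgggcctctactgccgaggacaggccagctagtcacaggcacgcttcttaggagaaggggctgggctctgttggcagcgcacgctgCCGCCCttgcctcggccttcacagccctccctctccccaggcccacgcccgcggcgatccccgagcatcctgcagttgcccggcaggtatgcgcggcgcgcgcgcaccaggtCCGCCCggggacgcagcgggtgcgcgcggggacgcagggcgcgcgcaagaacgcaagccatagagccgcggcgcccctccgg
Napa: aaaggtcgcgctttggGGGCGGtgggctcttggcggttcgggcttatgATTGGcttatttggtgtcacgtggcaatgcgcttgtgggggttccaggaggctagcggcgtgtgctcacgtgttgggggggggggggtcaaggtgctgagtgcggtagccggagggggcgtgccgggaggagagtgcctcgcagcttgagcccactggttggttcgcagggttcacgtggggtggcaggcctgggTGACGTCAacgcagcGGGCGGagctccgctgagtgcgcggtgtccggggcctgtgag
GGGCGG, or its reverse complement, occurs 3 times at the first Syn2 start, 2 times in Snap91 and 2 times in Napa. The second Syn2 start has 2 matches to CCAAT, and Napa has 1 to CCAAT and 1 to TGACGTCA. Over all 32851 promoters in the table, 35.7% hold GGGCGG, 37.4% CCAAT, 13.6% TATAAA and 1.8% TGACGTCA. Among the 70 promoters of the vesicle and fusion genes, the shares are 64.3%, 24.3%, 7.1% and 2.9%. These are letter matches in a fixed window, and nothing was measured at the promoters.

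Marker lists were read for whether their genes had a value. Of 15 pan-neuronal markers, 14 had a value (Nefl did not), as had 8 of 10 astrocyte markers and 9 of 12 oligodendrocyte markers. So had 11 of 14 endothelial and mural markers. Of the lists of tissues outside the brain, 10 of 14 liver markers had a value. Fewer had one among the anterior pituitary (2 of 8), heart and skeletal muscle (4 of 13) and erythrocyte markers (2 of 6). A value alone thus does not tell brain from other tissue. All treated arrays correlated with the control at 0.980 to 0.995 across probes, with the day 3 arrays lowest. Some marker lists of single brain regions and of tissues outside the brain changed with the day of dosing. That of liver also changed with dose, and the values are given after the results.

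On day 3, 13 of the 90 probes were higher than on day 1 and 5 were lower, by limma's moderated test at an adjusted p under 0.05. Their 18 calls are 20% of the 90, beside 22.2% of all probes (12.0% higher, 10.2% lower), so the genes of this family were called about as often as any. Their median difference was 0.0052, beside -0.038 over all probes. Without the genes that share only a prefix, 16 of 77 probes were called (20.8%). The higher probes belonged to Snap91, Sypl (both of its probes), Syn2, Napa, Vamp7, Snapc3, Stx6, Syngr1, Stxbp5l, Napb, Stx7 and Syt4. The lower ones belonged to Rab34, Rab3b, Stxbp2, Sv2b and Stx18. The split between higher and lower depended on the scaling, with 8 higher and 18 lower in the deposited values as they stand, and 9 higher and 16 lower with median scaling. These scalings kept 13 and 14 of the 18 calls, and every call they added was lower. Which probes were added is not given here, and the values of uncalled probes are those after quantile normalization. In the deposited values the median of all probes on the day 3 arrays lay 0.12 and 0.091 below the control, and that of the 90 probes 0.13 and 0.11 below. Leaving out the day 3 array at 1250 mg/kg left 6 calls, and leaving out the day 1 array at 1250 mg/kg left 10. With an array left out, its day rests on 1 array that is assumed to vary like the others.

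**Figure D1:**
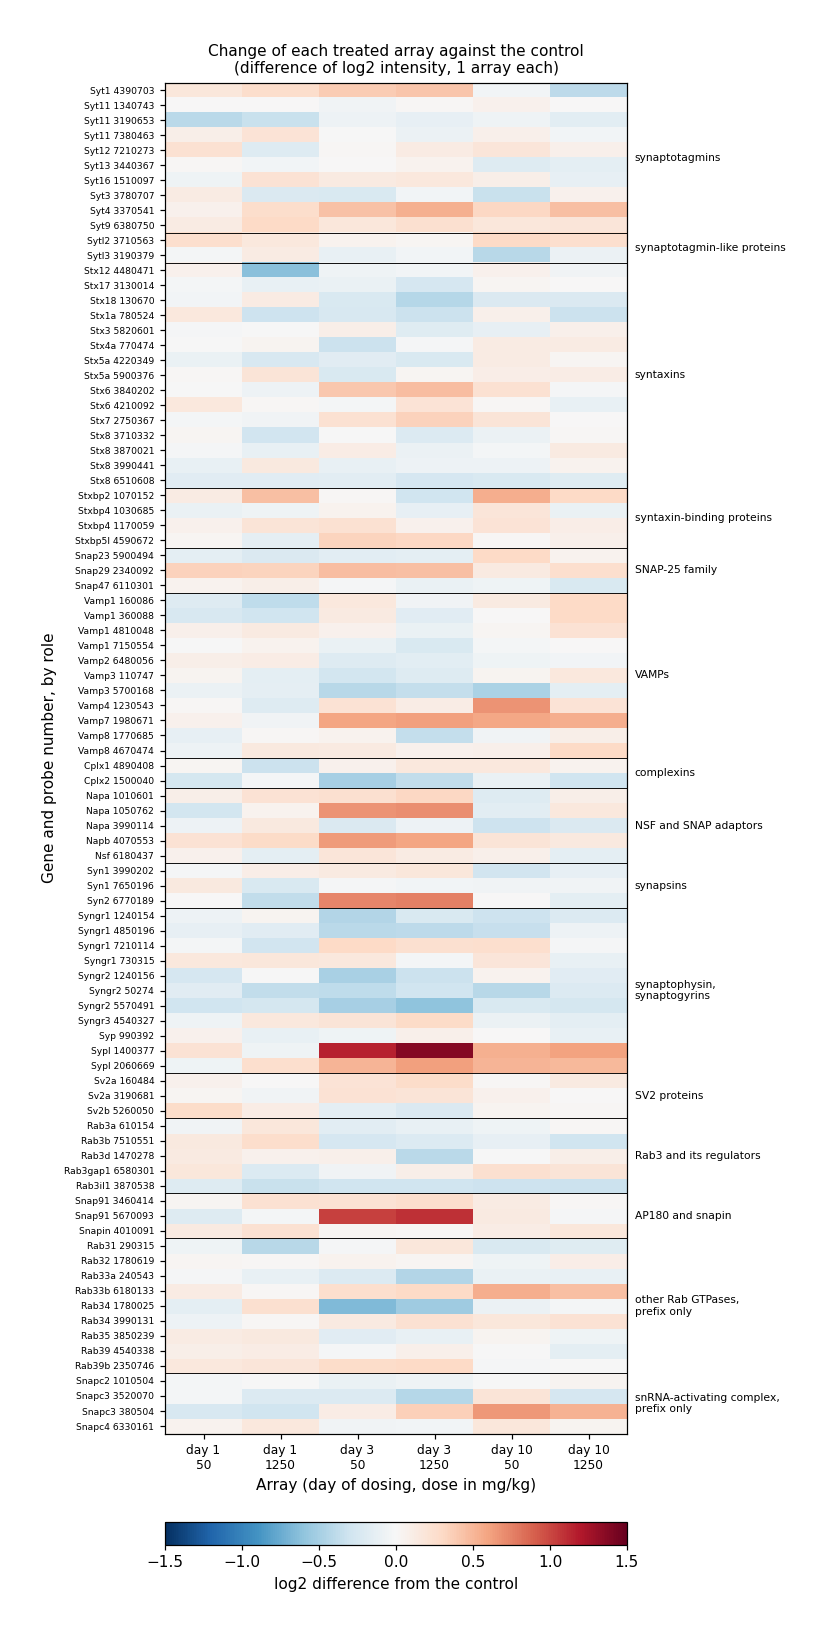
Log2 difference of each treated array (columns, day and dose in mg/kg) from the control array for all 90 probes (rows, gene and probe number, grouped by role); red is higher and blue is lower than the control. The darkest red cells are the 2 day 3 arrays for probes of Sypl (1.15 and 1.38) and Snap91 (1.03 and 1.10), while most rows stay pale.

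Against the control, most 1.5-fold changes of these genes were seen on day 3. No probe reached 1.5-fold higher after 1 day, while 6 and 7 did after 3 days and 2 and 1 after 10 days. Over all probes the shares 1.5-fold higher were 0.0977% and 0.504% after 1 day, 5.37% and 6.16% after 3 days, and 0.902% and 1.40% after 10 days. Lower by 1.5-fold were 1 probe on day 1 at 1250 mg/kg (Stx12) and 1 on each day 3 array (Rab34 at 50 mg/kg, a Syngr2 probe at 1250 mg/kg). The shares of all probes 1.5-fold lower were 0.173% and 0.504% after 1 day, 2.08% and 2.52% after 3 days, and 0.526% and 0.616% after 10 days, where none of the 90 was. In the deposited values the day 3 arrays had 3 and 4 probes higher and 2 lower on each, and with median scaling 3 and 5 higher and 2 and 0 lower. Both day 3 arrays stood above the other 5 arrays for 19 of the 90 probes (16.5% of all probes did) and below them for 16 (20.0% of all), a count chosen after seeing the data. The first number fell to 8 in the deposited values and 9 with median scaling.

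Among the synaptotagmins, 1 of 10 probes rose from day 1 to day 3 and none fell. In that comparison 12.0% of all probes rose and 10.2% fell, shares that stand beside the count of every role group below. Syt1 is the main calcium sensor of fast transmitter release. Its level was 6.55 in the control, 6.71 and 6.81 on day 1, 6.92 and 6.96 on day 3, 6.51 and 6.15 on day 10. The day 10 array at 1250 mg/kg was the lowest and the day 3 arrays the highest, and the days 3 and 10 do not overlap. Syt1 fell from day 3 to day 10, with a difference of -0.61 (SE 0.12, adjusted p = 0.00155), while day 10 against day 1 gave -0.43 (SE 0.12, adjusted p = 0.0565) and day 3 against day 1 0.18 (SE 0.12, adjusted p = 0.279). Without the day 10 array at 1250 mg/kg the fall from day 3 was -0.40 (adjusted p = 0.175). Syt4, a synaptotagmin of dense-core vesicles that binds calcium poorly, had levels of 5.54 in the control, 5.61 and 5.80 on day 1, 5.98 and 6.07 on day 3, 5.85 and 5.99 on day 10. All 6 treated arrays lay above the control. The rise from day 1 to day 3, 0.32 (SE 0.11, adjusted p = 0.0378), depended on the scaling, with 0.032 (adjusted p = 0.875) in the deposited values and 0.072 (adjusted p = 0.704) with median scaling. It also missed the threshold without the day 1 array at 50 mg/kg, without either day 3 array and without either day 10 array, at values from 0.28 to 0.36. The 3 probes of Syt11, another synaptotagmin with weak calcium binding, gave -0.016, 0.28 and -0.20 on day 3 against day 1, and none passed. Syt12 gave 0.051 on day 3 and 0.11 on day 10, with the lowest dose value of the group, -0.14. The other 4 genes, Syt3, Syt9, Syt13 and Syt16, had values from -0.087 to 0.076 on day 3 against day 1. Sytl2 and Sytl3, synaptotagmin-like effectors of Rab27, gave -0.16 and -0.13.

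Among the syntaxins, 2 of 15 probes rose from day 1 to day 3 and 1 fell. The 3 genes concerned serve internal membranes. Stx6, of the trans-Golgi network, had levels of 1.76 in the control, 1.76 and 1.68 on day 1, 2.16 and 2.22 on day 3, 1.98 and 1.75 on day 10. Both day 3 arrays lay above the other 5. The difference was 0.47 (SE 0.12, adjusted p = 0.00988), but its other probe gave 0.0006 (SE 0.13, adjusted p = 0.998). Without the day 3 array at 1250 mg/kg the first probe gave 0.37 (adjusted p = 0.203), and without the day 1 array at 1250 mg/kg 0.48 (adjusted p = 0.0511). Stx7, of late endosomes, had levels of 5.38 in the control, 5.36 and 5.33 on day 1, 5.62 and 5.73 on day 3, 5.58 and 5.39 on day 10. Its rise of 0.33 (SE 0.11, adjusted p = 0.0422) shrank to 0.061 (adjusted p = 0.762) in the deposited values and 0.10 (adjusted p = 0.597) with median scaling. Leaving out any 1 of the 6 treated arrays also ended that call, with values from 0.22 to 0.44. Stx18, of the endoplasmic reticulum, was the one that fell, with a difference of -0.37 (SE 0.13, adjusted p = 0.0405). Its levels were 2.55 in the control, 2.51 and 2.67 on day 1, 2.32 and 2.12 on day 3, 2.34 and 2.34 on day 10. Without the day 1 or the day 3 array at 1250 mg/kg, Stx18 gave -0.24 (adjusted p = 0.319) and -0.23 (adjusted p = 0.493).

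Stx1a, the plasma membrane syntaxin of transmitter release, had levels of 6.35 in the control, 6.51 and 6.05 on day 1, 6.11 and 6.04 on day 3, 6.43 and 6.03 on day 10. It was lower at 1250 than at 50 mg/kg on each of the 3 days, with differences of -0.47, -0.072 and -0.39. Its dose difference of -0.31 (SE 0.095, adjusted p = 0.673) was the lowest of the 90 probes, with an unadjusted p of 0.0037, and did not pass. Stx12, an endosomal syntaxin, stood at 4.28 in the control, 4.35 and 3.66 on day 1, 4.21 and 4.24 on day 3, 4.35 and 4.23 on day 10. The day 1 array at 1250 mg/kg was alone in being low, -0.62 from the control. No Stx12 comparison passed, with 0.29 on day 10 against day 1, the highest of the syntaxins. Stx5a, of traffic between the endoplasmic reticulum and the Golgi, gave -0.032 and -0.21 on day 3 from its 2 probes. The 4 probes of Stx8 lay between -0.11 and 0.083, and Stx3, Stx4a and Stx17 gave -0.035, -0.18 and -0.10.

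The SNAP-25 family was left with 3 genes that act mostly outside the synapse, and none of the 3 passed in any comparison. Snap23, a widely expressed relative of SNAP-25, gave 0.36 (SE 0.12, adjusted p = 0.132) on day 10 against day 1. Snap29, which joins endosomal and autophagosomal SNARE complexes, had levels of 1.69 in the control, 2.04 and 2.02 on day 1, 2.16 and 2.14 on day 3, 1.83 and 1.94 on day 10. All 6 treated arrays lay above the control, by 0.14 to 0.47, and treated against control gave 0.33 (SE 0.17, adjusted p = 1). Snap47 gave -0.13 on day 3 and -0.22 on day 10, both against day 1.

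The VAMPs held 3 of the 4 calls of day 10 against day 1, all higher on day 10. Those 4 calls are 4.44% of the 90 probes, beside 2.50% of all probes (1.80% higher, 0.699% lower). The split depended on the scaling, with 2 higher and 3 lower in the deposited values. With median scaling it was 3 higher and 3 lower, and each scaling kept 2 of the 4. In the quantile-normalized values without the genes that share only a prefix, 3 of 77 probes were called (3.9%). Vamp7, a VAMP of lysosomes and late endosomes, had levels of 1.90 in the control, 1.96 and 1.84 on day 1, 2.49 and 2.51 on day 3, 2.48 and 2.44 on day 10. The 4 arrays of days 3 and 10 lay in one narrow band, all above the control and day 1. Day 3 was above day 1 by 0.60 (SE 0.12, adjusted p = 0.00132) and day 10 by 0.56 (SE 0.12, adjusted p = 0.0152), while day 10 and day 3 gave -0.041 (SE 0.12, adjusted p = 0.877). The day 3 call held under every alternative run. The day 10 call missed without the day 1 array at 1250 mg/kg, 0.51 (adjusted p = 0.121), or either day 10 array, 0.57 (adjusted p = 0.0522) and 0.55 (adjusted p = 0.0795). Vamp4, a VAMP of the trans-Golgi network, had levels of 4.58 in the control, 4.60 and 4.39 on day 1, 4.80 and 4.70 on day 3, 5.26 and 4.79 on day 10. The day 10 array at 50 mg/kg stood apart from the other 6. Day 10 against day 1 was 0.53 (SE 0.12, adjusted p = 0.0207), and 0.38 (adjusted p = 0.306) without that array. It was 0.49 (adjusted p = 0.053) without the day 1 array at 50 mg/kg, and 0.33 (adjusted p = 0.136) and 0.37 (adjusted p = 0.0868) in the deposited and median-scaled values.

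Vamp1 is a VAMP of transmitter release that is abundant in brainstem and spinal cord. It had 4 probes, of which only probe 160086 passed. The levels of that probe were 3.35 in the control, 3.15 and 2.96 on day 1, 3.51 and 3.29 on day 3, 3.48 and 3.65 on day 10. The day 1 arrays were the 2 lowest and the day 10 array at 1250 mg/kg the highest, so that day 10 was above day 1 by 0.51 (SE 0.13, adjusted p = 0.0365). A further probe gave 0.42 (SE 0.13, adjusted p = 0.101), and the remaining ones 0.021 and -0.033. The call missed without the day 10 array at 1250 mg/kg, 0.32 (adjusted p = 0.509), without the day 1 array at 1250 mg/kg, 0.42 (adjusted p = 0.203), and in the deposited and median-scaled values, 0.39 (adjusted p = 0.072) and 0.42 (adjusted p = 0.0532). Vamp2, the main VAMP of forebrain synapses, had levels of 6.33 in the control, 6.42 and 6.45 on day 1, 6.14 and 6.17 on day 3, 6.27 and 6.29 on day 10. The day 3 pair lay below the other 5 arrays, and the difference of -0.28 (SE 0.11, adjusted p = 0.0651) from day 1 missed the threshold after quantile normalization. Vamp3, a widely expressed VAMP of recycling endosomes, gave -0.18 and -0.28 on day 3, and the endosomal Vamp8 gave -0.10 and 0.064.

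**Figure D2:**
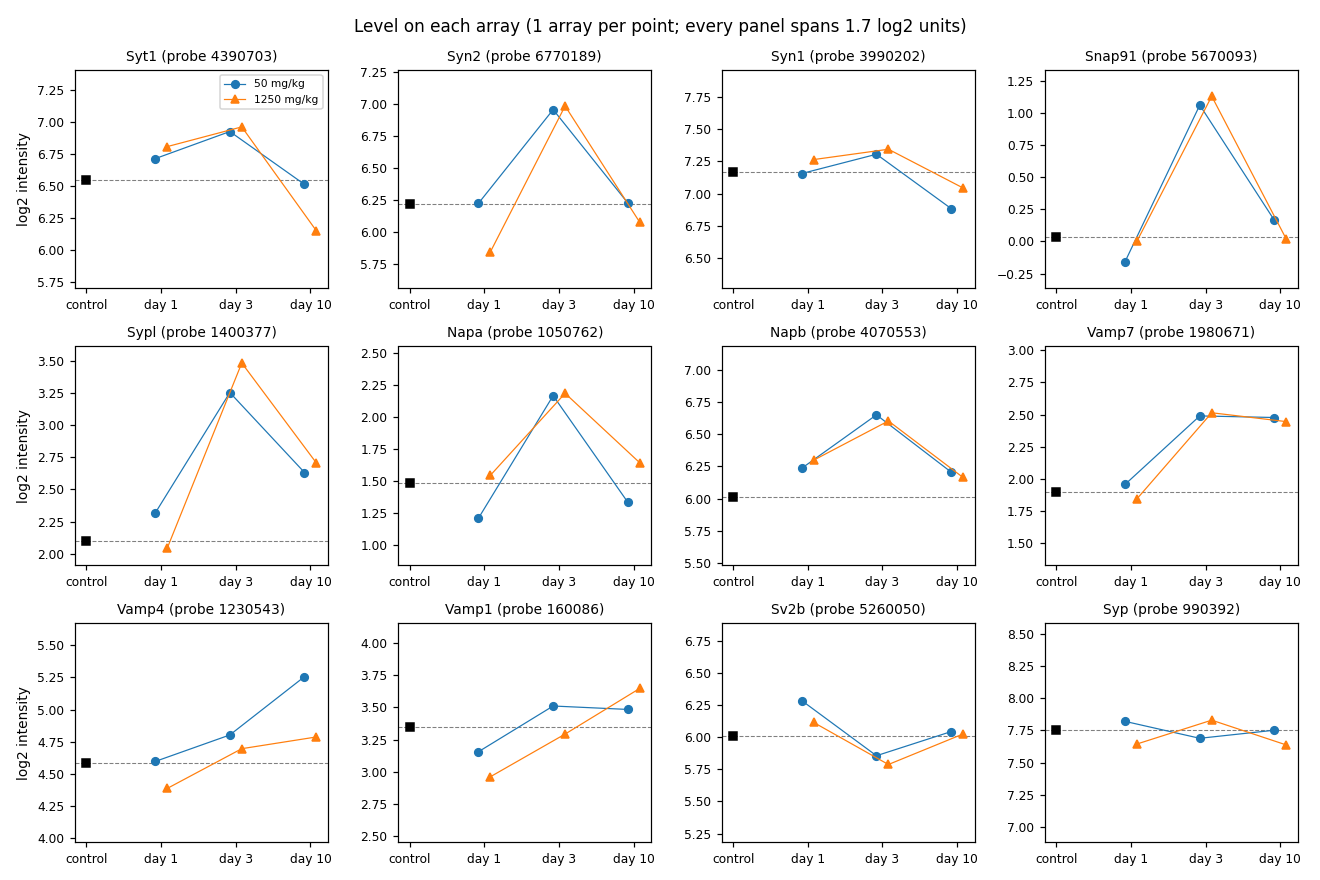
Normalized log2 intensity of 12 probes on each array (black square and dashed line, control; blue circles, 50 mg/kg; orange triangles, 1250 mg/kg), with 1 array per point and the same span in every panel. The Syn2, Snap91, Sypl and Napa panels peak on day 3 at both doses, Vamp7 stays high on day 10, and Syp is nearly level across the 7 arrays.

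Of the syntaxin-binding proteins, 1 probe rose and 1 fell from day 1 to day 3, of 4 probes. Stxbp2, a Munc18 protein best known outside neurons, had levels of 2.70 in the control, 2.82 and 3.16 on day 1, 2.72 and 2.41 on day 3, 3.24 and 3.00 on day 10. The day 3 array at 1250 mg/kg was the lowest and the day 10 array at 50 mg/kg the highest. It was lower on day 3 than on day 1, with a difference of -0.43 (SE 0.14, adjusted p = 0.0365), and higher on day 10 than on day 3, with 0.56 (SE 0.14, adjusted p = 0.0132). The first was -0.12 (adjusted p = 0.619) without the day 1 array at 1250 mg/kg, -0.25 (adjusted p = 0.449) without that of day 3 at this dose, and -0.73 (adjusted p = 0.00181) without the day 1 array at 50 mg/kg. The second gave 0.38 (adjusted p = 0.258) without the day 3 array at 1250 mg/kg and 0.43 (adjusted p = 0.115) without the day 10 array at 50 mg/kg. Stxbp5l (tomosyn-2, which holds syntaxin in inactive complexes) stood at 1.05 in the control, 1.08 and 0.91 on day 1, 1.39 and 1.36 on day 3, 1.06 and 1.13 on day 10. Both day 3 arrays were the highest, and the rise of 0.38 (SE 0.12, adjusted p = 0.0332) missed without the day 1 array at 1250 mg/kg, 0.28 (adjusted p = 0.249), or either day 3 array, 0.39 (adjusted p = 0.127) and 0.36 (adjusted p = 0.193). The 2 probes of Stxbp4 gave 0.047 and 0.012. Neither complexin passed: Cplx1 gave 0.25 (SE 0.11, adjusted p = 0.103) and Cplx2 -0.29 (SE 0.12, adjusted p = 0.0953) on day 3 against day 1, in opposite directions.

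Of 5 probes for the machinery that takes SNARE complexes apart, 2 rose on day 3 and fell again by day 10. Over all probes, 12.0% rose from day 1 to day 3 and 7.71% fell from day 3 to day 10. Napa encodes alpha-SNAP. The levels of its probe 1050762 were 1.49 in the control, 1.21 and 1.54 on day 1, 2.16 and 2.18 on day 3, 1.33 and 1.64 on day 10. The day 3 arrays stood clear of the other 5. The rise from day 1 was 0.80 (SE 0.13, adjusted p = 0.000154) and the fall from day 3 to day 10 -0.68 (SE 0.13, adjusted p = 0.00106), both held under every alternative run. The other 2 Napa probes gave 0.12 and -0.18 on day 3 against day 1, and -0.33 (SE 0.12, adjusted p = 0.0832) and -0.12 (SE 0.12, adjusted p = 0.581) on day 10 against day 3, none of which passed. Probe 1010601 also had both day 3 arrays above the other 5. Napb, the brain-enriched beta-SNAP, had levels of 6.02 in the control, 6.24 and 6.30 on day 1, 6.65 and 6.60 on day 3, 6.21 and 6.16 on day 10. All treated arrays lay above the control and the day 3 arrays were the 2 highest. The rise from day 1 was 0.36 (SE 0.11, adjusted p = 0.0188) and the fall to day 10 -0.44 (SE 0.11, adjusted p = 0.00866). In the deposited and median-scaled values the rise was 0.073 (adjusted p = 0.705) and 0.11 (adjusted p = 0.532), and it was 0.33 (adjusted p = 0.189) and 0.39 (adjusted p = 0.133) without the day 3 arrays at 50 and 1250 mg/kg. The fall missed without any 1 of the 4 arrays of days 3 and 10, with values from -0.47 to -0.41. Nsf itself, the ATPase, gave 0.19 (SE 0.10, adjusted p = 0.183) on day 3 and -0.19 on day 10 against day 3, and neither passed.

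The synapsins had 1 call of 3 probes on day 3, and 2 on day 10 against day 3. Over all probes the shares called were 22.2% and 11.7%. Syn2 had levels of 6.22 in the control, 6.22 and 5.85 on day 1, 6.95 and 6.98 on day 3, 6.23 and 6.08 on day 10. The day 3 arrays were the 2 highest by a wide margin, and the day 10 arrays were close to the control. Syn2 rose from day 1 to day 3 by 0.93 (SE 0.11, adjusted p = 8.75e-06) and fell again by day 10, with a difference of -0.82 (SE 0.11, adjusted p = 6.84e-05) from day 3, and both calls held under every alternative run. Syn1, a second major synapsin, had levels on probe 3990202 of 7.17 in the control, 7.16 and 7.26 on day 1, 7.31 and 7.34 on day 3, 6.88 and 7.04 on day 10. The day 10 arrays were the 2 lowest and the day 3 arrays the 2 highest. The fall from day 3 to day 10 was -0.36 (SE 0.10, adjusted p = 0.0247), but the other Syn1 probe gave -0.025 (SE 0.12, adjusted p = 0.924). The call also missed without any 1 of the 4 arrays of these days, at -0.41 to -0.31, and in the deposited values, -0.38 (adjusted p = 0.0695).

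Of 11 probes of the synaptophysin and synaptogyrin family, 3 rose on day 3 and none fell. Sypl, a synaptophysin relative that is found in many tissues and not only at synapses, held 2 of the 3. Its probe 1400377 stood at 2.10 in the control, 2.32 and 2.04 on day 1, 3.25 and 3.48 on day 3, 2.63 and 2.71 on day 10. Day 3 was above day 1 by 1.19 (SE 0.13, adjusted p = 2.63e-06), the highest value of the 90 probes. Day 10 against day 3 was -0.70 (SE 0.13, adjusted p = 0.00129), a fall, and day 10 lay 0.49 above day 1 (adjusted p = 0.052). That fall was -0.54 (adjusted p = 0.0594) without the day 3 array at 1250 mg/kg. Probe 2060669 had levels of 3.45 in the control, 3.39 and 3.69 on day 1, 3.96 and 4.06 on day 3, 3.96 and 3.93 on day 10. Here the 4 arrays of days 3 and 10 were all above the other 3, with 0.47 (SE 0.12, adjusted p = 0.00878) on day 3 and 0.40 (SE 0.12, adjusted p = 0.0836) on day 10, both against day 1. The day 3 call of this probe was 0.34 (adjusted p = 0.085) without the day 1 array at 50 mg/kg, 0.45 (adjusted p = 0.0805) and 0.49 (adjusted p = 0.0657) without the day 3 arrays, and 0.29 (adjusted p = 0.0908) and 0.33 (adjusted p = 0.0512) in the deposited and median-scaled values.

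Syp, the classical marker of synaptic vesicles, was level after quantile normalization, and its values under the other scalings are not given here. Its levels were 7.75 in the control, 7.82 and 7.64 on day 1, 7.69 and 7.83 on day 3, 7.75 and 7.64 on day 10. Day 3 against day 1 was 0.027 (SE 0.11, adjusted p = 0.886) and day 10 against day 1 -0.038 (SE 0.11, adjusted p = 0.89). Syngr1, a synaptogyrin of neurons, was split over its 4 probes. Probe 7210114 rose on day 3 by 0.42 (SE 0.12, adjusted p = 0.0158), while the others gave -0.32, -0.25 and -0.11 and did not pass. Without the day 1 or the day 3 array at 1250 mg/kg the rise was 0.37 (adjusted p = 0.0951) and 0.32 (adjusted p = 0.286), and 0.30 (adjusted p = 0.0766) in the deposited values. The 3 probes of Syngr2, a synaptogyrin of non-neuronal cells, gave -0.28, -0.069 and -0.27, none of which passed. Syngr3, another neuronal synaptogyrin, stood at 5.50 in the control, 5.43 and 5.65 on day 1, 5.69 and 5.78 on day 3, 5.41 and 5.35 on day 10. Its fall from day 3 to day 10, -0.35 (SE 0.11, adjusted p = 0.046), lay just inside the threshold and missed it in 10 of 13 alternatives, with values from -0.46 to -0.25. These included leaving out any 1 of the 4 arrays of the 2 days.

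Of 3 SV2 probes, 1 fell on day 3 and none rose. Sv2a, the form found in nearly all synapses, gave 0.21 (SE 0.10, adjusted p = 0.166) and 0.22 (SE 0.10, adjusted p = 0.141) on day 3 against day 1 from its 2 probes. On both probes the day 3 arrays lay above the other 5. Sv2b, a form enriched in glutamate neurons, had levels of 6.01 in the control, 6.28 and 6.11 on day 1, 5.86 and 5.79 on day 3, 6.04 and 6.02 on day 10. Its day 3 arrays lay below the other 5. Sv2b fell from day 1 to day 3, with a difference of -0.38 (SE 0.11, adjusted p = 0.016), and gave -0.31 (adjusted p = 0.0524) without the day 1 array at 50 mg/kg and -0.36 (adjusted p = 0.144) and -0.39 (adjusted p = 0.136) without the day 3 arrays. Its size depended on the scaling, with -0.64 (adjusted p = 0.000934) in the deposited values and -0.60 (adjusted p = 0.000918) with median scaling.

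Of the Rab3 group, 1 of 5 probes fell and none rose on day 3. Rab3a, the most abundant Rab of synaptic vesicles, had levels of 6.55 in the control, 6.50 and 6.72 on day 1, 6.39 and 6.43 on day 3, 6.48 and 6.56 on day 10. Both day 3 arrays were the lowest, but the difference of -0.20 (SE 0.11, adjusted p = 0.191) from day 1 did not pass after quantile normalization. Rab3b, a rarer form, had levels of 2.42 in the control, 2.57 and 2.68 on day 1, 2.18 and 2.22 on day 3, 2.30 and 2.13 on day 10. The 4 arrays of days 3 and 10 lay below the control and the day 1 arrays above it. Its fall on day 3 was -0.43 (SE 0.12, adjusted p = 0.0168), and day 10 against day 1 gave -0.42 (SE 0.12, adjusted p = 0.0815). The day 3 call missed without the day 1 array at 1250 mg/kg, -0.34 (adjusted p = 0.142), or either day 3 array, -0.39 (adjusted p = 0.142) and -0.47 (adjusted p = 0.0854). Rab3d gave -0.26, and Rab3gap1, a subunit of the enzyme that switches Rab3 off, gave 0.038 on day 3 and 0.24 on day 10. Rab3il1, which activates Rab3a, gave -0.035. It was below the control on all 6 treated arrays, with an unadjusted p of 0.0299 and an adjusted p of 1.

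Snap91 encodes AP180, which gathers clathrin for the retrieval of vesicle membrane, and its 2 probes disagreed. The levels of probe 5670093 were 0.034 in the control, -0.16 and 0.0036 on day 1, 1.06 and 1.13 on day 3, 0.16 and 0.017 on day 10. The 2 day 3 arrays stood alone, about 1 unit above the 5 others. The rise on day 3 was 1.17 (SE 0.12, adjusted p = 1.58e-06) and the fall to day 10 -1.01 (SE 0.12, adjusted p = 1.74e-05), both held under every alternative run. The other probe stood at 1.93 in the control, 1.96 and 2.15 on day 1, 2.15 and 2.18 on day 3, 2.05 and 1.95 on day 10, and gave 0.11 (SE 0.12, adjusted p = 0.561) on day 3 against day 1. The filter on dim probes removed probe 5670093, and also probes of Napa (1050762), Snapc3 (380504) and Stxbp5l, so their calls were not tried under it. The run with 1 probe per gene kept the brightest probe of each gene. It left out probe 5670093 and the called probes of Napa, Snapc3, Rab34, Syngr1 and Vamp1, and probe 1400377 of Sypl. Snapin, a partner of SNAP-25 that also serves lysosome traffic, gave -0.15 on day 3 and -0.043 on day 10.

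Probes of 1 gene could differ. Of the 17 genes with several probes, 7 had a call on day 3, and Sypl was the one with all of its probes called. Over all probes 22.2% were called in that comparison, and the same count was not made over all genes with several probes. A probe that missed the threshold need not disagree with one that passed it. Some probes lay close together, as for Sv2a (0.21 and 0.22) and Stxbp4 (0.012 and 0.047). The sequences of the probes were not used here, so which transcripts each probe detects was not tested.

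**Figure D3:**
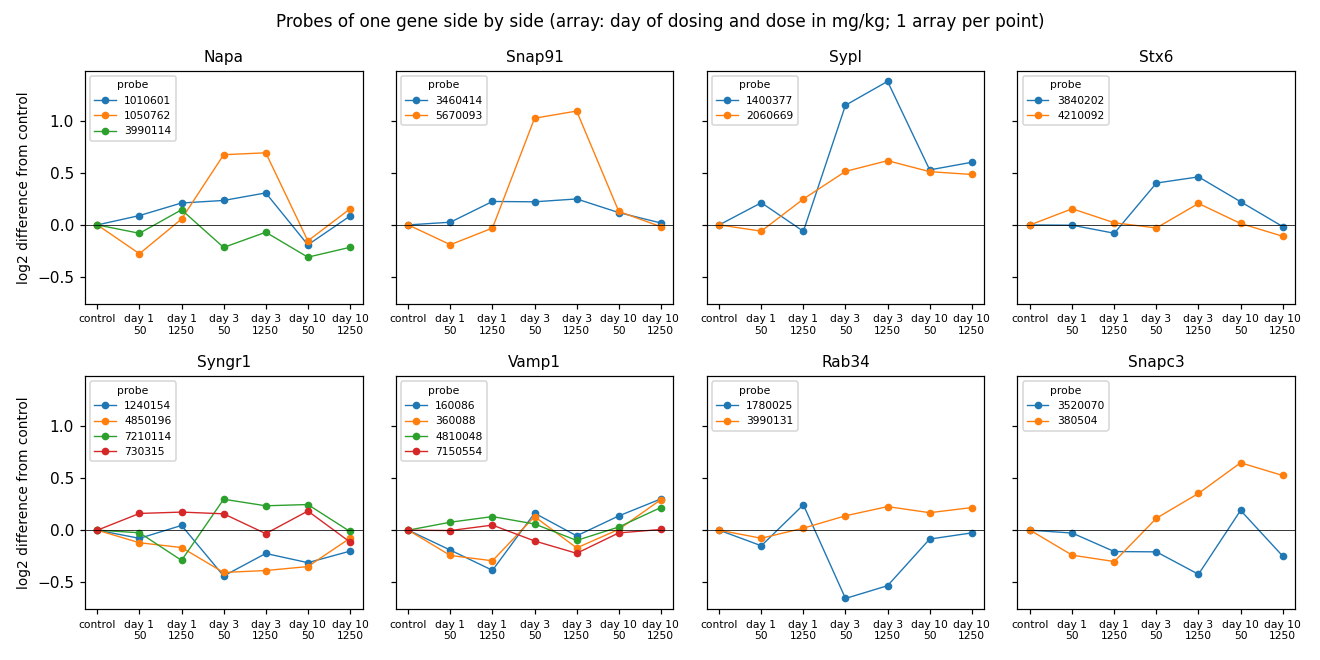
Log2 difference from the control (vertical axis) on each array (horizontal axis, day and dose in mg/kg) for 8 genes with several probes, 1 line per probe. In Napa, Snap91, Stx6 and Rab34, 1 probe lies at least 0.40 from the control on both day 3 arrays and the others lie within 0.31 of it there, the 2 Snapc3 probes part on both days, and both Sypl probes rise.

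Among the genes that share only a prefix, 2 had calls. Rab34, a Rab of the Golgi, had levels on probe 1780025 of 2.24 in the control, 2.09 and 2.48 on day 1, 1.58 and 1.71 on day 3, 2.15 and 2.21 on day 10. Its lowest arrays were the 2 of day 3. The probe fell on day 3, with a difference of -0.64 (SE 0.13, adjusted p = 0.00112) from day 1, and rose again by day 10, 0.54 (SE 0.13, adjusted p = 0.00748), while the other Rab34 probe gave 0.21 on day 3. The first call held under every alternative run, and the second missed without the day 3 array at 1250 mg/kg, 0.49 (adjusted p = 0.0958), or the day 10 array at 50 mg/kg, 0.44 (adjusted p = 0.0998). Snapc3 had levels on probe 380504 of 1.57 in the control, 1.33 and 1.27 on day 1, 1.69 and 1.93 on day 3, 2.22 and 2.10 on day 10. The 2 day 10 arrays were the highest and the 2 day 1 arrays the lowest. Day 3 was above day 1 by 0.51 (SE 0.13, adjusted p = 0.00775) and day 10 by 0.86 (SE 0.13, adjusted p = 0.000837), and its other probe gave -0.20 and 0.087. The run with 1 probe per gene used that brighter probe, and the filter on dim probes removed probe 380504. The day 10 call held under every alternative run, and that of day 3 was 0.45 (adjusted p = 0.0764) and 0.34 (adjusted p = 0.246) without the day 1 and the day 3 array at 1250 mg/kg. Rab33b, of the Golgi, gave 0.43 (SE 0.12, adjusted p = 0.0604) on day 10 against day 1, which did not pass, and Rab33a and Rab39b gave -0.26 and 0.12 on day 3. The other values on day 3 ran from -0.28 for Rab35 to 0.32 for Rab31, with Rab32 and Rab39 between them. Snapc2 and Snapc4 gave -0.064 and -0.15.

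Between day 3 and day 10, 8 of the 90 probes fell and 2 rose. This is 11.1% of them, beside 11.7% of all probes (7.71% lower, 3.95% higher). Without the genes that share only a prefix, 9 of 77 probes were called (11.7%). The 8 were the probes named above for Snap91, Syn2, Sypl, Napa, Syt1, Napb, Syn1 and Syngr3, and the 2 were Stxbp2 and Rab34. Of the 8, those of Snap91, Syn2, Sypl, Napa and Napb had risen from day 1 to day 3. Both comparisons share the day 3 arrays. Leaving out the day 3 array at 1250 mg/kg left 4 calls, and the day 10 array at 50 mg/kg 5. The 4 calls of day 10 against day 1 became 2 without the day 1 or the day 10 array at 1250 mg/kg, and 7 without the day 1 array at 50 mg/kg.

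**Figure D4:**
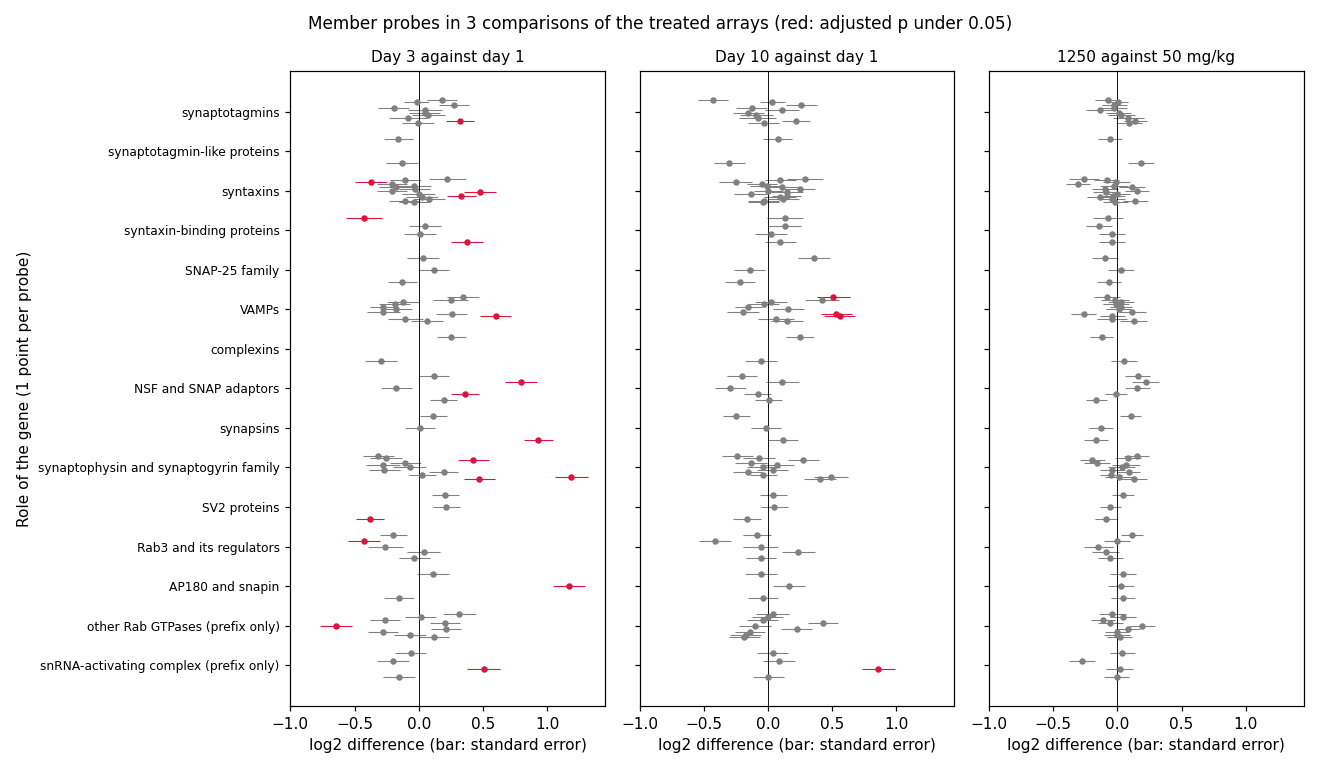
Log2 difference of each of the 90 probes (points, with standard error bars) by role of the gene, for day 3 against day 1, day 10 against day 1, and 1250 against 50 mg/kg; red points have an adjusted p under 0.05. Red points number 18 in the first panel, 4 in the second and none in the third, where all values lie between -0.31 and 0.22.

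Between the doses, none of the 90 probes passed, beside 0.143% of all probes. At an unadjusted p under 0.05 there were 5, beside 720 of all 13304, and these were Stx1a (-0.31), Snapc3 probe 3520070 (-0.28), Vamp4 (-0.26), Stx12 (-0.26) and Napa probe 1050762 (0.22). Stx1a, Snapc3, Vamp4 and Napa kept their direction on all 3 days. Those of Stx12 were -0.69, 0.024 and -0.12 on days 1, 3 and 10, with the day 1 pair farthest apart. Treated against control also gave no call among the 90, nor among all probes (0%), with 1 and 268 at an unadjusted p under 0.05. The single control array limits that comparison.

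Other genes of the vesicle cycle that the name rule leaves out were read from 3 further lists. On day 3 against day 1, 11.5%, 19.1% and 20.6% of their probes were called, beside 22.2% of all probes. Of 26 active zone and priming probes, 1 rose and 2 fell in that comparison. Rims1, a scaffold of the active zone, rose by 0.59 (SE 0.13, adjusted p = 0.00313), and Doc2a and Nrxn2 gave -0.41 and -0.35. Of 47 endocytosis probes, 6 rose and 3 fell. Both probes of Dnm1, the neuronal dynamin that cuts vesicles from the membrane, rose, by 0.73 (SE 0.12, adjusted p = 0.000287) and 0.76 (SE 0.13, adjusted p = 0.00026). Of 5 probes of Epn2, an endocytic adaptor, 1 rose, by 0.99 (SE 0.12, adjusted p = 1.19e-05), and the clathrin adaptor subunits were split, with Ap2a1 at 0.57 and Ap2b1 at 0.37 against Ap2m1 at -0.47 and Ap2s1 at -0.44. Of 34 probes of other vesicle proteins and transmitter loading, 4 rose and 3 fell. The widest change was that of Atp6v1a, a subunit of the proton pump that energizes vesicle filling, at 1.61 (SE 0.12, adjusted p = 2.42e-08), followed by -1.46 (SE 0.12, adjusted p = 1.68e-07) on day 10 against day 3. Slc17a6, the glutamate transporter of brainstem and thalamic neurons, rose by 0.49 on day 3 and stayed 0.50 above day 1 on day 10. On day 10 against day 1 the 3 lists had 2, 3 and 2 calls, all higher. These are 7.69%, 6.38% and 5.88% of their probes, beside 2.50% of all probes.

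Markers of neurons and of brain regions moved over the same arrays. The counts below stand beside 22.2% of all probes called on day 3 and 2.50% on day 10, both against day 1. For day 10 against day 3 that share was 11.7%, and for dose 0.143%. The counts of these lists were made after quantile normalization only. They were not tried under another scaling or with an array left out. Of 18 pan-neuronal probes, 6 rose on day 3 and none fell, Elavl4 by 1.26 and Gap43 by 1.20, and the mean level of the list was 3.92 in the control, 3.90 to 3.93 on the day 1 arrays, 4.16 to 4.19 on those of day 3, and at most 4.01 on those of day 10. Cerebellar markers rose on 5 of 7 probes on day 3 and on 6 of 7 on day 10, their mean level running from 1.66 on day 1 at 50 mg/kg to 3.81 on day 10 at 1250 mg/kg. All 4 hindbrain and serotonin probes rose on day 3. Cortical and hippocampal markers had 5 probes higher and 2 lower of 18 on day 3, and on day 10 against day 3 none higher and 8 lower. Striatal markers had 1 higher and 4 lower of 13 on day 3, microglial markers 1 higher and 3 lower of 8, endothelial and mural markers 1 higher and 3 lower of 14, astrocyte markers 2 higher and 1 lower of 13, and oligodendrocyte markers 4 higher and 1 lower of 16. Hypothalamic markers had 3 lower of 10 on day 3 and again on day 10, both against day 1. Thalamic markers had 1 higher and 1 lower of 7 on day 3, and 2 higher on day 10, both against day 1. Olfactory bulb markers had no call of 8 on day 3, but 2 higher and 1 lower on day 10, both against day 1. On day 10 against day 3, olfactory bulb markers had 2 lower and thalamic markers no call. Both lists hold Calb2. Of the tissues outside the brain, both anterior pituitary probes were lower on day 3 and on day 10 than on day 1, by medians of -2.29 and -4.18. Their mean level on day 3, however, was 2.87 at 50 mg/kg and -0.59 at 1250 mg/kg. Liver markers had 9 lower and 1 higher of 12 on day 3, and 10 of 12 were higher at 1250 than at 50 mg/kg, with a median of 1.30. Their mean level was 1.12 in the control, 1.05 and 3.32 on day 1, 0.99 and 1.53 on day 3, 2.03 and 3.03 on day 10. The day 1 array at 1250 mg/kg was thus the high one, and at 50 mg/kg days 1 and 3 were close. Both erythrocyte probes and 2 of 4 heart and skeletal muscle probes were lower on day 3 than on day 1. Mean erythrocyte level was 4.31 in the control, 4.54 and 5.25 on day 1, 4.39 and 3.76 on day 3, 4.73 and 5.65 on day 10. Mean heart and skeletal muscle level was highest in the control, at 3.00, and ran from 1.42 to 2.61 on the treated arrays. That control array is the baseline of every difference from the control given here. Cerebellar markers without a value included Calb1, Cbln3, Gabra6, Itpr1, Car8 and Neurod1. The part of these shifts in the values of the vesicle and fusion genes was not tested.

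**Figure D5:**
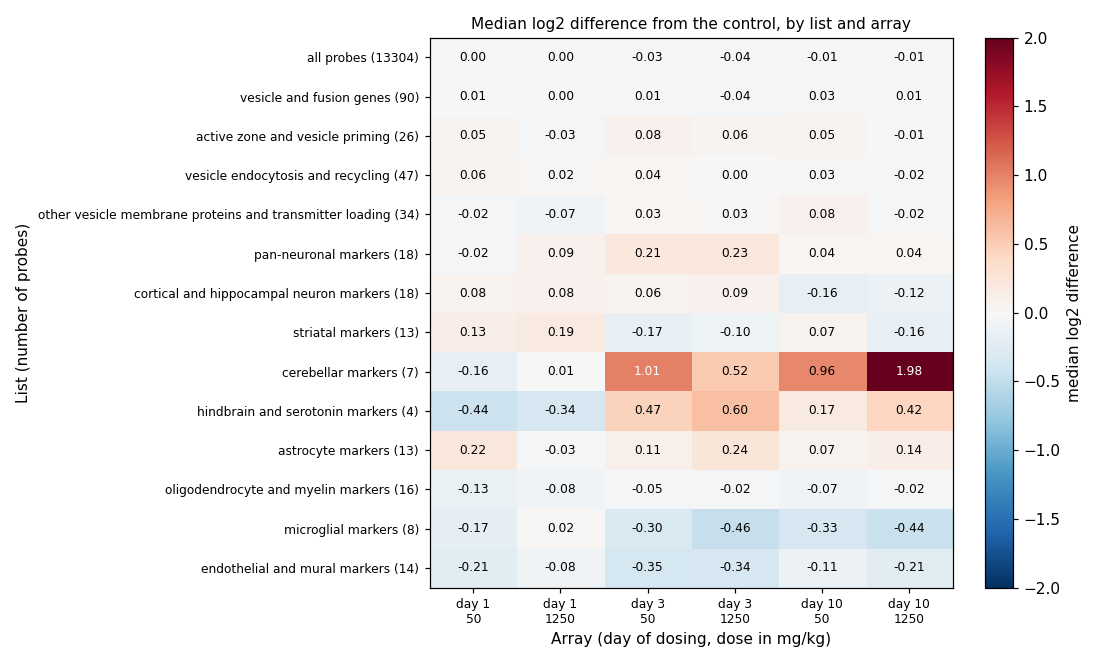
Median log2 difference from the control for each list (rows, with the number of probes) on each treated array (columns, day and dose in mg/kg), with the value printed in each cell. The row of vesicle and fusion genes stays between -0.036 and 0.031, while cerebellar markers reach 1.98 on day 10 at 1250 mg/kg.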

How the data were processed

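Biotin-labelled cRNA from brain total RNA was hybridised to 7 Illumina arrays, 1 for each condition of the labels. The authors' deposited values are log values, read here as log2 intensities. No label gives the base. It was read by hand from 1 pair of probes in a deposited table of linear intensities, whose 7 columns match no sample label and entered no calculation, so the size of every fold depends on that reading. The authors' background step, normalization and rule for blank values are given in no source used here, and depth or signal over background is unknown. Medians of the deposited values ran from 1.87 to 1.93. Names come from the platform annotation, with symbols updated through NCBI's table for GRCm38.p6, in which all 12150 named probes matched by Entrez number. Of the other probes, 1154 are unnamed here and 0 have several symbols.

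The deposited values were quantile-normalized, and each of the 13304 probes was tested with limma 3.58.1 in R 4.3.3 (lmFit, eBayes with an intensity trend). Benjamini-Hochberg adjustment ran over all probes of a comparison, with a threshold of 0.05. The fit for dose and day used the 6 treated arrays with both terms (2 residual and 18.0 prior degrees of freedom), so its standard errors rest mostly on a variance shared by all probes and also take up dose effects that differ by day. Treated against control used all 7 arrays (5 residual and 5.75 prior degrees of freedom). Single arrays were set against the control with no test, and 1.5-fold changes were counted. Script output was tested on simulated data.

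The text names the core release genes and every gene with a called or 1.5-fold changed probe. In each role group it also names the genes with the highest and lowest values for day 10 against day 1 and for dose. Some of these are given by their value on day 3 against day 1 only. The other genes are given by their values. Members and lists were chosen with earlier results of these data known. The grouping by role and the choice of promoters were made after the values were seen. Some genes named in the plan are not reported here. Other normalizations, filters, blocks and left-out arrays were tried.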

Additional observations from a re-analysis of the deposited data

Results flagged for a closer look

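A difference between time points that passed the test was listed as worth a second look, which gives the 32 called values of the vesicle and fusion genes. With 1 array per condition, no group was large enough for a check of outlying samples. All values are log2 differences from the fit over the 6 treated arrays.

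For day 3 against day 1, the higher values were 1.19 and 0.47 for the 2 Sypl probes, 1.17 for Snap91, 0.93 for Syn2, 0.80 for Napa, 0.60 for Vamp7, 0.51 for Snapc3, 0.47 for Stx6, 0.42 for Syngr1, 0.38 for Stxbp5l, 0.36 for Napb, 0.33 for Stx7 and 0.32 for Syt4. The lower values were -0.64 for Rab34, -0.43 for Rab3b, -0.43 for Stxbp2, -0.38 for Sv2b and -0.37 for Stx18. For day 10 against day 1, the values were 0.86 for Snapc3, 0.56 for Vamp7, 0.53 for Vamp4 and 0.51 for Vamp1.

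For day 10 against day 3, the lower values were -1.01 for Snap91, -0.82 for Syn2, -0.70 for Sypl, -0.68 for Napa, -0.61 for Syt1, -0.44 for Napb, -0.36 for Syn1 and -0.35 for Syngr3. The higher values were 0.56 for Stxbp2 and 0.54 for Rab34.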

How the results depend on the processing

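Of the 32 called values, 10 passed under every alternative run for them: Napa, Rab34, Snap91, Syn2, Sypl probe 1400377 and Vamp7 on day 3 against day 1, Napa, Snap91 and Syn2 on day 10 against day 3, and Snapc3 on day 10 against day 1. Only the Syn2 and Vamp7 probes among these were in the run with 1 probe per gene. Those of Napa, Snap91 and Snapc3 were also absent from the run without dim probes. Over 397 recomputed values, 309 kept their direction and their side of the threshold, 88 kept the direction and missed it, and 0 turned round. Of the counts of called probes among the 90, day 10 against day 1 (4) became 2 with 1 probe per gene and 2 with no dose block, and day 10 against day 3 (10) became 5 with 1 probe per gene, where fewer probes were tested. Leaving out 1 array gave 6 to 18 calls on day 3 against day 1, 2 to 7 on day 10 against day 1 and 4 to 13 on day 10 against day 3. With median scaling, 5 probes in place of 8 differed 1.5-fold from the control on day 3 at 1250 mg/kg, and 1 in place of 2 on day 10 at 50 mg/kg; the cause was not tested. The dose and treatment comparisons had 0 calls among the 90 under every alternative run. Over all probes, day 10 against day 1 had 333 calls, 684 in the deposited values and 629 with median scaling, of which 210 and 278 were higher, beside 240. Dose had 19 calls over all probes, 2 with the dimmer probes removed and 0 with no day block. Day 3 against day 1 had 1591 higher and 1360 lower over all probes, 1323 and 2719 in the deposited values, and 1513 and 2196 with median scaling. No paired analysis was possible because each condition has 1 array, so no replicate numbers are shared beyond the day and dose already in the fit. Signal over background is unknown, which limits what can be said of dim probes.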
